A study of Mus musculus with 4 samples.

Results

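Genes that mark the endothelium of the mouse lung were followed in 4 RNA-seq libraries, 1 from each arm of a study of the antiarrhythmic amiodarone and the oral thrombin inhibitor dabigatran. The members were 42 genes, chosen by symbol from the 17780 genes of the deposited table. They comprised 27 genes shared by most blood vessel endothelium, 5 of large vessels, venules and lymphatics, 3 of general capillary cells, 3 of aerocytes and 4 of leukocyte adhesion. The 4 groups were vehicle, amiodarone, dabigatran, and amiodarone + dabigatran. All were C57BL/6 mice by the labels, and C57BL/6J by the study's methods (male, 6 to 7 weeks old). Amiodarone was given orally at 300 mg/kg and dabigatran etexilate, the prodrug of dabigatran, at 60 mg/kg, on 5 days a week for 4 weeks. Every group, the controls included, received 0.5% carboxymethylcellulose as the carrier. RNA came from the left lung at the end of treatment, which the labels place after 28 days and the study's text on day 26. Whether a library held 1 animal or several is not given in the sources used here.

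With 1 library per group no difference has a replicate check, and no p-value is given. The libraries held between 17498486 (vehicle) and 18903401 (amiodarone + dabigatran) estimated reads, of which the 42 genes took between 1.36% and 1.63%. Levels are in FPKM (fragments per length of transcript and size of library), which can be compared between genes because they are per length. Each ratio of 2 levels carries an exact 95% interval from its reads, which covers counting error only and not the spread between mice. The interval narrows with more reads, and most members were among the more abundant genes. Where members beyond counting error are counted, the share of all genes beside them is thus not at a like depth of reads. A gene was called higher or lower when it differed by at least 1.5-fold on the log2(FPKM + 1) scale, and only the 13183 genes that averaged 1 FPKM or more were considered. That fold is 0.58 on the log2 scale.

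Endothelial cells line every blood vessel and are held together by the junction proteins VE-cadherin and claudin-5. In the alveolar wall they form a mosaic. General capillary cells carry the apelin receptor and serve as progenitors of the capillary bed, whereas aerocytes are broad, thin cells that make the ligand apelin and face the airspace for gas exchange. The apelin pathway, VEGF signalling through VEGFR2, and SOX F and ETS transcription factors are known from vessel growth and repair.

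Endothelial transcripts were abundant in all 4 libraries, as the tissue label requires. All 42 genes had reads in every library, and 40 passed the limit of 1 FPKM. The exceptions were Sele, E-selectin, which activated endothelium makes, and Ackr1, a chemokine receptor of venules. The caveolar coat gene Cav1 had 645 FPKM in vehicle, 682 in amiodarone, 663 in dabigatran and 606 in amiodarone + dabigatran. Levels differed far more between genes than between libraries, and most genes lay close together across the 4.

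**Figure D1:**
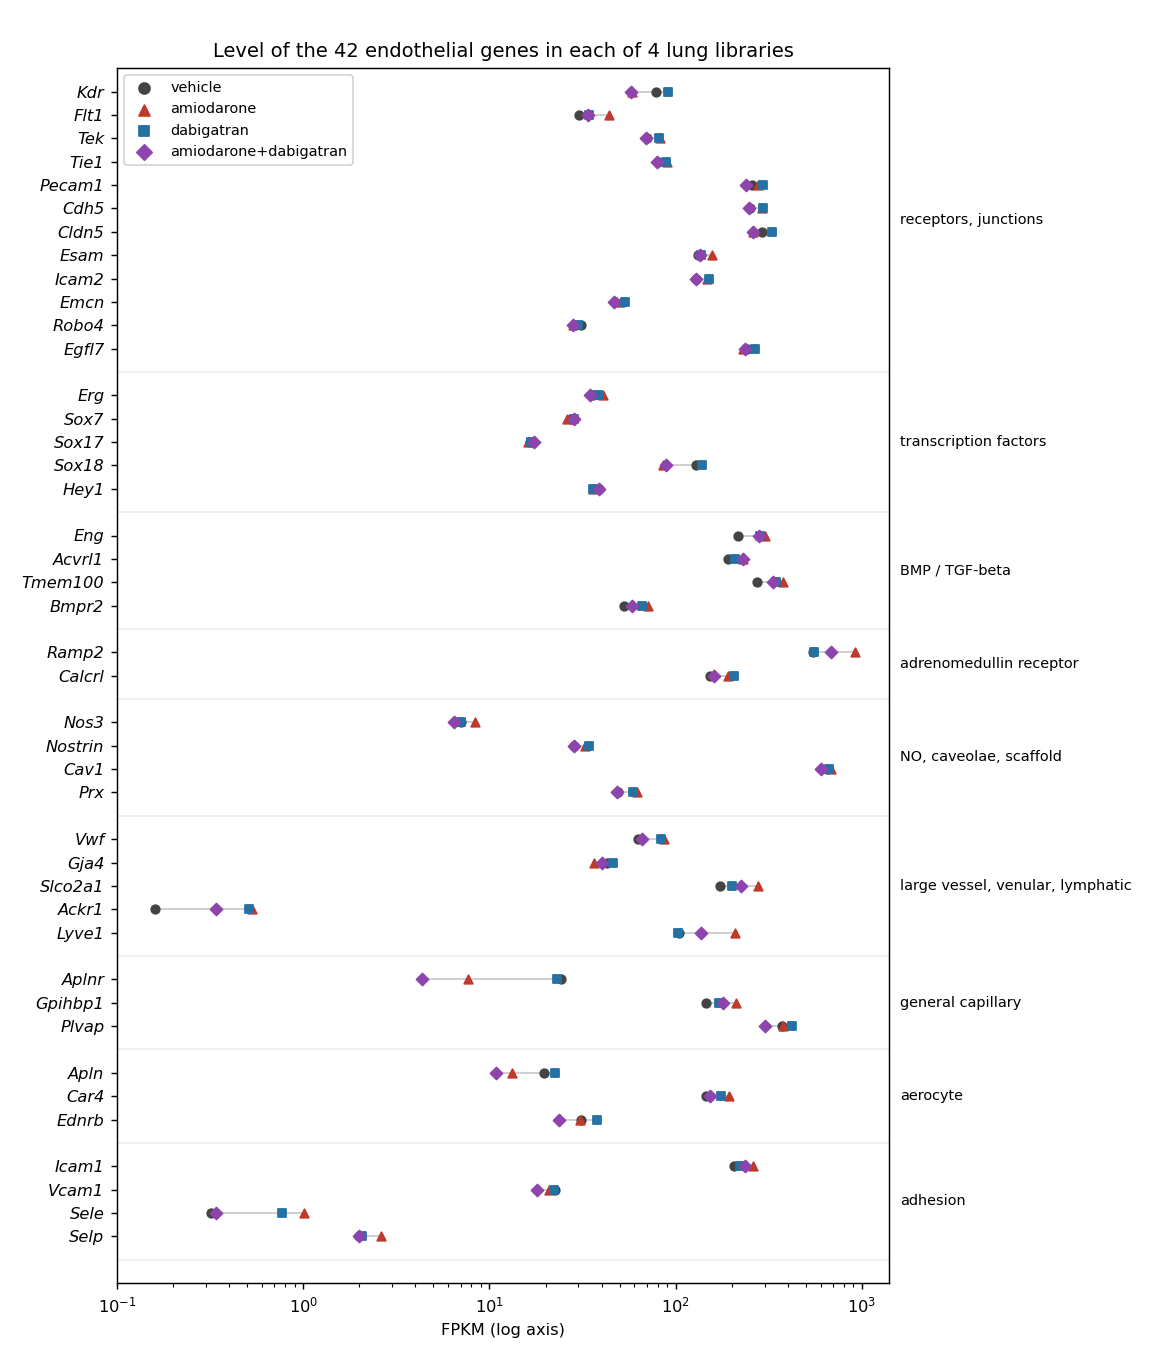
Level of each of the 42 endothelial genes (FPKM, log axis) in the vehicle, amiodarone, dabigatran and amiodarone + dabigatran libraries, 1 point per library, grouped by role. Most rows are narrow, while Aplnr runs from 4.36 to 24.2 FPKM and Lyve1 from 103 to 209; the wide rows of Sele and Ackr1 rest on few reads.

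Between amiodarone and vehicle 3 of the 40 genes were called higher, Ramp2, Slco2a1 and Lyve1, where 4.13% of all genes were. Only Aplnr was called lower, where 3.75% of all genes were. Between dabigatran and vehicle none was called, against a background of 0.402% higher and 0.379% lower. Adding dabigatran to amiodarone gave no gene called higher, with 0.971% in the background, and 2 called lower, Aplnr and Lyve1, with 1.12% in the background. Adding amiodarone to dabigatran gave none called higher, with a background of 3.14%, and 5 called lower, Aplnr, Apln, Ednrb, Kdr and Sox18, with a background of 1.91%. In whole tissue, fewer endothelial cells and less RNA per cell cannot be told apart.

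Of the 40 genes Aplnr differed most between libraries. It encodes the apelin receptor and lies on chromosome 2 of GRCm38.p6, from 85136360 to 85139923. It had 24.2 FPKM in vehicle and 22.9 in dabigatran, but 7.62 in amiodarone and 4.36 in amiodarone + dabigatran. Both libraries with amiodarone were thus far below both without it. The ratio was 0.315 (0.284 to 0.349) for amiodarone against vehicle and 0.190 (0.167 to 0.216) for amiodarone + dabigatran against dabigatran. In the first of these comparisons 7 of the 13183 genes had a lower log2 difference, and in the second, 4 did. Aplnr was the 1 member called in the same direction in both, as 0.857% of all genes were called lower in both. The combination library was also below amiodarone alone, at a ratio of 0.572 (0.493 to 0.662), while dabigatran against vehicle gave 0.947 (0.880 to 1.02).

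Apln, which encodes the ligand apelin and marks aerocytes, was low in the same libraries, by a smaller amount. It lies on chromosome X, from 48025146 to 48034853. Its level was 19.7 FPKM in vehicle, 13.2 in amiodarone, 22.5 in dabigatran and 10.8 in amiodarone + dabigatran. Again the libraries with amiodarone were the low ones. The ratio was 0.481 (0.436 to 0.529) for the combination against dabigatran, which was called. It was 0.670 (0.610 to 0.736) for amiodarone against vehicle, a difference of -0.54 that was just inside the limit on the log2(FPKM + 1) scale.

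The stretch just before the start of Apln and of 3 other called genes is shown here, since their called ratios lay on both sides of 1. RefSeq promoters on GRCm38.p6 matched 24 of the 42 genes, with 29 windows. Aplnr was not among the matched genes, so no stretch is shown for it. For a gene with several windows the first listed would be the one shown. Each line gives the 250 bases before the transcript start of the RefSeq promoter table, read 5′ to 3′ on the gene's strand. That start is the edge of the gene's annotated span for Apln, and lies 617 bases inside it for Kdr, 807 for Ednrb and 1426 for Slco2a1, where other transcripts begin farther upstream. In each line capitals mark a match to a searched motif.
Apln, chrX:48034854-48035103, minus strand: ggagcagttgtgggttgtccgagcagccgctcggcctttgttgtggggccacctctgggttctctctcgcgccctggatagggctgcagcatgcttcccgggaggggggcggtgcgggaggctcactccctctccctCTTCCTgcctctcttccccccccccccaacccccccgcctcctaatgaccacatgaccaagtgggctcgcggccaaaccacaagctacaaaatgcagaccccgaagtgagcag
Kdr, chr5:75978456-75978705, minus strand: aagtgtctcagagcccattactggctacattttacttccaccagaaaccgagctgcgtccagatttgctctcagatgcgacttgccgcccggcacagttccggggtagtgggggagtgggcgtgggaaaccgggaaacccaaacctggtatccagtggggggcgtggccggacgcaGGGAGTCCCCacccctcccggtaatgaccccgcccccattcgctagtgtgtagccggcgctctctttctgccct
Ednrb, chr14:103843702-103843951, minus strand: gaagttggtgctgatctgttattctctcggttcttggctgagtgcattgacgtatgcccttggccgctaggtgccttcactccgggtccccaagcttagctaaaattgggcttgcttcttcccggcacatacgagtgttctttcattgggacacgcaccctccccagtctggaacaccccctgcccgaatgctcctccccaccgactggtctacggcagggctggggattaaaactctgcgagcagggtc
Slco2a1, chr9:103008237-103008486, plus strand: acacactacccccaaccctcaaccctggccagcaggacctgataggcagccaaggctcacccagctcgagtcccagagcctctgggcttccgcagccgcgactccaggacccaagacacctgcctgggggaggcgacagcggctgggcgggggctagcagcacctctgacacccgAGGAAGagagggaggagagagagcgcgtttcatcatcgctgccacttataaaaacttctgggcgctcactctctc
The motifs searched on both strands were AGGAAG, a core of ETS factor sites, ACAAT, a core of SOX factor sites, and the NF-kB consensus. Apln held AGGAAG on the opposite strand, 113 to 108 bases before the start, and Slco2a1 held it on its own strand, 75 to 70 bases before. Kdr held the NF-kB consensus 74 to 65 bases before the start, and Ednrb held none of the 3. AGGAAG was in 55.2% of the members' windows and 29.5% of 32851 windows of all genes. ACAAT was in 20.7% and 27.7%, and the NF-kB consensus in 10.3% and 3.90%. A match of letters describes these windows and is not a bound site.

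The other aerocyte genes did not share the pattern of Apln. Ednrb, the endothelin B receptor, had 31.1 FPKM in vehicle, 30.7 in amiodarone, 37.9 in dabigatran and 23.7 in amiodarone + dabigatran. It was lowest in the combination, with a called ratio of 0.627 (0.589 to 0.667) against dabigatran, and even between amiodarone and vehicle, at 0.987 (0.929 to 1.05). Car4, the carbonic anhydrase on the luminal face of these cells, had 146, 194, 174 and 153 FPKM in the same order of libraries. It was highest with amiodarone alone, at a ratio of 1.33 (1.27 to 1.39) to vehicle, and slightly lower in the combination than in dabigatran, at 0.878 (0.839 to 0.920). The 3 aerocyte genes therefore pointed in 3 ways between amiodarone and vehicle, and all were lower in the combination than in dabigatran.

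The other general capillary genes also parted from Aplnr. Gpihbp1, which anchors lipoprotein lipase to the capillary wall, had 145 FPKM in vehicle, 211 in amiodarone, 170 in dabigatran and 180 in amiodarone + dabigatran. It was highest with amiodarone, at a ratio of 1.45 (1.37 to 1.54), while Aplnr was at 0.315 in the same pair of libraries. Plvap, the protein of the diaphragms across fenestrae and caveolae, had 372, 377, 421 and 302 FPKM. Vehicle and amiodarone overlapped within counting error, at 1.01 (0.989 to 1.04), and the combination was below dabigatran at 0.717 (0.700 to 0.735). Set against the median difference of the 27 pan-endothelial genes, Aplnr stood at -1.73 without and -1.99 with dabigatran on the log2 scale, and Apln at -0.72 and -0.83. Gpihbp1 stood at 0.36 and 0.25, Car4 at 0.22 and -0.02, Plvap at -0.16 and -0.31, and Ednrb at -0.20 and -0.49. A list of 5 further capillary markers from outside the members, not divided here by subtype, was also split. Fibin was called higher between amiodarone and vehicle, at 1.60 (1.47 to 1.75), and was at 1.14 between the combination and dabigatran. The other 4 were lower beyond counting error in both comparisons, and none of them was called. Their ratios were 0.709 and 0.677 for Chst1, 0.871 and 0.786 for Kit, 0.887 and 0.878 for Emp2, and 0.959 and 0.965 for Tbx2.

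**Figure D2:**
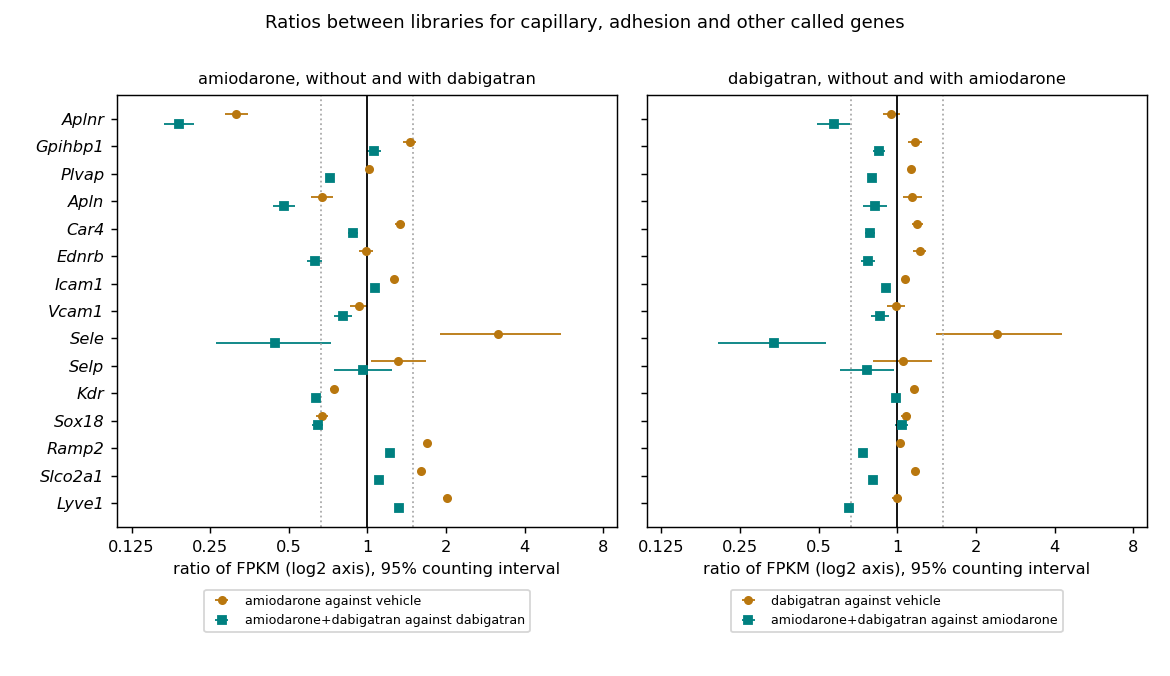
Ratio of FPKM between pairs of libraries (log2 axis) for the capillary and adhesion genes and the other called genes, with exact 95% counting intervals as bars; dotted lines mark 1.5-fold. Left, amiodarone against vehicle (circles) and amiodarone + dabigatran against dabigatran (squares); right, dabigatran against vehicle and amiodarone + dabigatran against amiodarone. Aplnr lies farthest left in the left panel, at 0.315 and 0.190, and the bars of Sele are the widest.

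Among receptors and junction genes, VEGFR2 stood out. Kdr, which encodes it, had 78.0 FPKM in vehicle, 58.2 in amiodarone, 90.8 in dabigatran and 57.4 in amiodarone + dabigatran. Both amiodarone libraries were low, with a called ratio of 0.633 (0.612 to 0.654) for the combination against dabigatran and 0.746 (0.721 to 0.772) for amiodarone against vehicle. Flt1, the decoy-like VEGF receptor VEGFR1, did not share this. Its ratio was 1.46 (1.40 to 1.53) for amiodarone against vehicle and 0.984 (0.941 to 1.03) for the combination against dabigatran. Cldn5, the claudin of endothelial tight junctions, had the highest mean of the group, with 289, 261, 330 and 259 FPKM in the order vehicle, amiodarone, dabigatran, combination. Its ratios were 0.906 (0.876 to 0.937) without and 0.783 (0.758 to 0.809) with dabigatran. Of the 12 genes, 7 were higher and 4 lower beyond counting error between amiodarone and vehicle, where 19.5% and 30.0% of all genes were. Between the combination and dabigatran 9 were lower and 0 higher, where 23.3% and 19.5% of all genes were. Pecam1 and Cdh5 (VE-cadherin), the usual identity markers, were among those that switched: their ratios were 1.07 and 1.16 in the first comparison and 0.808 and 0.838 in the second. The shares of all genes given here are not at a like depth of reads.

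Of the ligands of these receptors, 1 was called. Vegfa, the main ligand of VEGFR2, had 277 FPKM in vehicle, 231 in amiodarone, 304 in dabigatran and 237 in amiodarone + dabigatran, and was thus low in the same libraries as Kdr, without being called. For the receptor TIE2, encoded by Tek, the agonist Angpt1 had 18.5, 20.4, 19.5 and 20.4 FPKM, and Angpt2, its context-dependent antagonist, had 9.11, 5.59, 7.44 and 6.79. Angpt2 was called lower between amiodarone and vehicle, at 0.614 (0.537 to 0.701), and not between the combination and dabigatran, at 0.913 (0.800 to 1.04). Vegfc, which acts mainly through the lymphatic receptor VEGFR3, had 7.55, 11.6, 9.04 and 9.25 FPKM in the same order. Its ratio of 1.54 for amiodarone against vehicle was beyond the span of the receptor and junction genes, but it was not called on the log2(FPKM + 1) scale. The remaining ligands were Vegfb (39.0, 38.0, 36.6 and 36.8 FPKM), Vegfd (33.9, 30.1, 33.8 and 33.2 FPKM) and Pgf (3.82, 4.15, 3.07 and 3.12 FPKM), and none of these was called. Of the 9 VEGF and angiopoietin ligands and co-receptors examined, Angpt2 was the 1 called in these comparisons.

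Of the 5 transcription factors, Sox18 was the one that differed most. Sox18, a SOX F factor of vessel development, had 128 FPKM in vehicle, 85.5 in amiodarone, 138 in dabigatran and 89.0 in amiodarone + dabigatran. The 2 libraries with amiodarone were close together and below the 2 without it. The ratio of 0.645 (0.613 to 0.678) for the combination against dabigatran was called, and that of 0.669 (0.635 to 0.704) for amiodarone against vehicle was just short of the limit. Its relatives did not follow: Sox7 had ratios of 0.960 (0.894 to 1.03) and 1.0 (0.934 to 1.07), and Sox17 of 0.967 (0.887 to 1.06) and 1.04 (0.956 to 1.13). Erg, an ETS factor that maintains endothelial identity, was at 1.13 (1.06 to 1.20) and 0.899 (0.844 to 0.958). Hey1, a Notch target, was at 0.933 (0.867 to 1.0) and 1.09 (1.01 to 1.17).

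The 4 genes of BMP and TGF-beta family signalling were all higher in amiodarone than in vehicle beyond counting error, as 19.5% of all genes were. All were also higher in dabigatran than in vehicle beyond counting error, as 15.2% of all genes were. These shares of all genes are not at a like depth of reads. None of the 4 was called. Tmem100, a target of BMP signalling and the most abundant of them, had 274 FPKM in vehicle, 377 in amiodarone, 347 in dabigatran and 334 in amiodarone + dabigatran. Vehicle was the low library here. The endothelial co-receptor Eng (216, 301, 283 and 279 FPKM) had the same shape. The ratios of the 4 genes ran from 1.20 for Acvrl1, the receptor ALK1, to 1.40 for Eng between amiodarone and vehicle, and from 0.887 for Bmpr2 to 1.10 for Acvrl1 between the combination and dabigatran. Of their 8 ligands and targets that passed the limit, none was called in either comparison. The ligand Bmp6 had 69.3, 87.1, 83.7 and 84.1 FPKM, with vehicle again the lowest, Bmp4 had 42.1, 39.1, 41.7 and 35.4, and Bmp2 had 2.36, 3.26, 2.34 and 2.91. Gdf2, which encodes the ALK1 ligand BMP9, did not pass the limit. The targets were split, in the same order of libraries. Smad6 (70.8, 93.3, 92.3 and 84.7 FPKM) was lowest in vehicle. Id3 (119, 91.7, 130 and 96.6) and Id2 (57.1, 51.6, 56.3 and 51.0) were low in both amiodarone libraries. Id1 (80.1, 95.9, 79.8 and 90.2) was high in them, and Smad7 (24.6, 24.6, 25.0 and 25.8) was nearly even.

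The adrenomedullin receptor is made of Calcrl and the accessory protein Ramp2, and the signal through it keeps the endothelial barrier tight. Ramp2 had 545 FPKM in vehicle, 920 in amiodarone, 555 in dabigatran and 678 in amiodarone + dabigatran. Amiodarone alone was the high library, with a called ratio of 1.69 (1.64 to 1.74) to vehicle, and the combination lay between, at 1.22 (1.19 to 1.26) against dabigatran. Calcrl had 152, 190, 206 and 160 FPKM, and its ratios of 1.24 (1.22 to 1.27) and 0.776 (0.759 to 0.793) lay on opposite sides of 1. The ligand Adm was scarce, with 3.71, 6.20, 3.83 and 5.54 FPKM. It was called higher between amiodarone and vehicle, at 1.67 (1.28 to 2.20), and was at 1.45 (1.10 to 1.91) between the combination and dabigatran. Adm2, which acts on the same receptor, did not pass the limit.

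In the group of nitric oxide, caveolae and scaffold genes, every difference was small. Cav1 gave ratios of 1.06 (1.04 to 1.07) for amiodarone against vehicle and 0.915 (0.900 to 0.931) for the combination against dabigatran. The others were Nos3, the endothelial nitric oxide synthase, Nostrin, which moves that enzyme within the cell, and Prx, a scaffold protein. Ratios in the group ran from 1.06 for Cav1 to 1.27 for Prx in the first comparison and from 0.818 for Prx to 0.924 for Nos3 in the second. Nos3 shares 25.2% of its exon bases with the antisense gene Gm15587, and since it is not stated whether counting used strand, their reads cannot be told apart.

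Large vessel and lymphatic genes held 2 of the 3 members called higher with amiodarone. Slco2a1, the prostaglandin transporter, had 172 FPKM in vehicle, 275 in amiodarone, 201 in dabigatran and 223 in amiodarone + dabigatran. Its ratio was 1.60 (1.56 to 1.63) for amiodarone against vehicle and 1.11 (1.08 to 1.13) for the combination against dabigatran. Lyve1, a hyaluronan receptor of lymphatic endothelium that a subset of lung macrophages also carries, had 104, 209, 103 and 136 FPKM. Amiodarone alone stood apart, at 2.01 (1.94 to 2.09) times vehicle, and the combination was called lower than amiodarone at 0.653 (0.633 to 0.673), yet was 1.32 (1.27 to 1.37) times dabigatran. The summed level of 4 lymphatic endothelial markers was 132, 133, 141 and 138 FPKM, and that of 8 macrophage markers 3511, 5103, 3809 and 4833 FPKM, in the same order. Each sum rests mostly on 1 gene, Lyz2 with 3396 of the macrophage sum in vehicle and Ccl21a with 117 of the lymphatic one. Of the 8 macrophage markers 5 were called higher with amiodarone, where 4.13% of all genes were. Between the combination and amiodarone, where Lyve1 was lower, the markers were split. Cd68, Adgre1, Mrc1, Csf1r and Marco were at ratios of 1.16, 1.17, 1.14, 1.10 and 2.79, and Itgax, Lyz2 and Cd14 at 0.915, 0.941 and 0.786. Of the lymphatic markers Flt4 was at 1.27 for amiodarone against vehicle and Ccl21a at 0.981, while Prox1 and Reln did not pass the limit. The part of either cell type in the Lyve1 result was not tested.

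The remaining members of that group were Vwf, Gja4 and Ackr1. Vwf, the clotting protein stored in endothelial granules, was at 1.38 (1.34 to 1.41) and 0.789 (0.769 to 0.810). Gja4, the gap junction protein connexin 37 of arteries, was at 0.841 (0.775 to 0.913) and 0.870 (0.804 to 0.940). Ackr1 had 3 reads in vehicle, 11 in amiodarone, 10 in dabigatran and 7 in amiodarone + dabigatran, too few to show a difference, and shares 21.5% of its exon bases with Cadm3.

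The adhesion genes, through which leukocytes roll and attach, gave no call among the 3 that passed the limit. Icam1, which binds leukocyte beta-2 integrins, had 206 FPKM in vehicle, 260 in amiodarone, 220 in dabigatran and 235 in amiodarone + dabigatran, with ratios of 1.26 (1.23 to 1.30) and 1.07 (1.04 to 1.10). It shares 20.2% of its exon bases with the antisense gene Gm47079. Vcam1, which binds integrin alpha-4, had 22.6, 20.9, 22.3 and 17.9 FPKM, and was lowest in the combination. Selp, P-selectin, had 1.99, 2.61, 2.08 and 2.0 FPKM. Sele had 0.320, 1.01, 0.770 and 0.340 FPKM, from 20, 70, 51 and 26 reads. It was thus low in vehicle and in the combination and higher with either drug alone, at 3.16 (1.90 to 5.48) for amiodarone and 2.41 (1.41 to 4.26) for dabigatran, each against vehicle.

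On the leukocyte side, 2 of 7 counter-receptor genes were called higher in both comparisons of amiodarone, as 2.08% of all genes were. These were the beta-2 integrin subunits Itgam and Itgb2. Itgam had 5.30 FPKM in vehicle, 10.4 in amiodarone, 5.47 in dabigatran and 11.7 in amiodarone + dabigatran. Itgb2 had 24.8, 46.5, 27.5 and 64.4 FPKM. Itgal, the other subunit partner of Itgb2 that binds Icam1, was called in neither, at ratios of 1.14 (1.05 to 1.24) and 1.32 (1.22 to 1.42). Selplg, the counter-receptor of Selp, was at 1.48 (1.38 to 1.59) and at a called 1.70 (1.59 to 1.82). Neutrophil markers were also high in both amiodarone libraries, at a summed level of 89.6, 586, 66.9 and 422 FPKM over 5 genes. All 5 of them were called higher in both comparisons. Between the combination and amiodarone they parted from the integrins. The neutrophil ratios ran from 0.579 to 0.922, beside 1.12 for Itgam and 1.38 for Itgb2. The ratios of Icam1 and Selp were closer to 1 than those of Itgam and Itgb2 in both comparisons.

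The lipase bound by Gpihbp1 was the other related gene called in both. Lpl, lipoprotein lipase, had 63.8 FPKM in vehicle, 138 in amiodarone, 65.0 in dabigatran and 99.2 in amiodarone + dabigatran. Its ratios were 2.17 (2.10 to 2.25) and 1.53 (1.47 to 1.58), beside 1.45 and 1.06 for Gpihbp1. Lpl is also made by macrophages, of whose 8 markers 5 were called higher in both comparisons while Csf1r was at 1.05 and 1.10 and Cd14 at 1.16 and 0.907, and by fat cells, whose 3 markers summed to 68.9, 23.8, 116 and 45.1 FPKM. The part of these cells in the Lpl result was not tested. The endothelin ligand Edn1 had 17.9, 17.8, 16.6 and 23.9 FPKM, the highest level being in the library in which its receptor gene Ednrb was lowest. Edn3 had 7.12, 9.49, 7.99 and 9.86 FPKM, and Edn2 did not pass the limit.

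As a group, the endothelial genes were slightly higher with either drug alone, and by summed level back near vehicle with both. Many single genes differed from this. Aplnr, Apln, Ednrb, Kdr and Sox18 were below vehicle in the combination. So were others by smaller amounts, such as Plvap (302 against 372 FPKM), Cldn5 (259 against 289), Pecam1 (238 against 258) and Cav1 (606 against 645). Still others were above vehicle there, such as Ramp2 (678 against 545 FPKM) and Eng (279 against 216). The 27 pan-endothelial genes summed to 4047 FPKM in vehicle, 4792 in amiodarone, 4533 in dabigatran and 4192 in amiodarone + dabigatran. Ramp2, with 545 FPKM in vehicle and 920 in amiodarone, weighs heavily on that sum. The median log2 difference of the 40 genes was 0.19 for amiodarone against vehicle and 0.16 for dabigatran against vehicle, beside -0.04 and 0.00 for all genes. It was -0.22 for the combination against amiodarone and -0.17 against dabigatran, beside 0.03 and -0.01. Beyond counting error, 25 genes were higher and 9 lower between amiodarone and vehicle (19.5% and 30.0% of all genes), and 26 higher and 0 lower between dabigatran and vehicle (15.2% and 13.4%). Between the combination and amiodarone 3 were higher and 29 lower (21.1% and 14.9%), and between the combination and dabigatran 7 were higher and 25 lower (19.5% and 23.3%). These shares of all genes are not at a like depth of reads, so the counts cannot be set directly against them.

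The direction with amiodarone therefore often differed without and with dabigatran, in pairs of libraries that share none. Of the 40 genes, 14 were higher in amiodarone than in vehicle and lower in the combination than in dabigatran, each beyond counting error, a pattern held by 2.07% of all genes, and none showed the opposite pattern. They included Pecam1, Cdh5, Tek, Tie1, Calcrl, Car4, Vwf and Prx. The difference between the 2 comparisons was not tested, and the share of all genes with the pattern is again not at a like depth of reads. Genes of the same cell type in the same libraries can move together, so the 14 are not separate observations of a treatment. A list of 25 further endothelial genes, read in these same libraries, had medians of 0.27 and -0.12, and 8 of the 25 held the pattern. The medians of the 27 pan-endothelial members were 0.18 and -0.16. Only 18 of the 40 members (45.0%) had the same sign in both comparisons, against 64.2% of all genes.

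**Figure D3:**
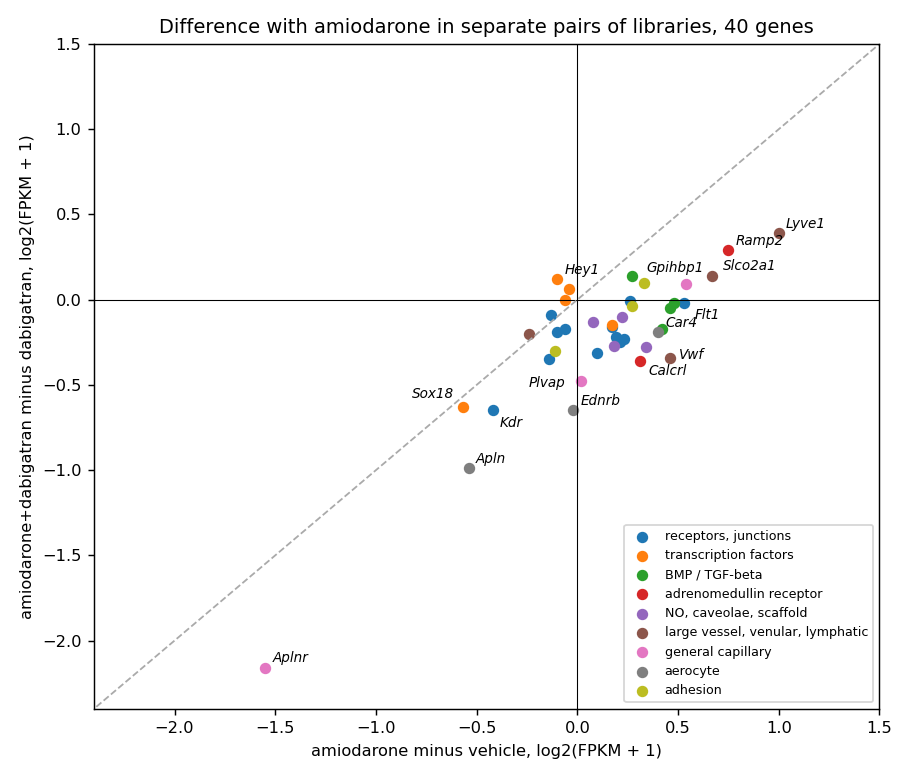
Difference in log2(FPKM + 1) between amiodarone and vehicle (horizontal) against that between amiodarone + dabigatran and dabigatran (vertical) for the 40 endothelial genes that passed the limit, coloured by role, with the line of equal differences dashed. Aplnr lies at -1.55 and -2.16, Apln, Kdr and Sox18 lie in the same lower left part, and a band of genes lies to the right of 0 and below it.

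Red blood cell genes varied along with this pattern. The 4 genes summed to 11387 FPKM in vehicle, 15746 in amiodarone, 12780 in dabigatran and 6319 in amiodarone + dabigatran, and all 4 were called lower in the combination than in dabigatran. The order of the libraries differed from that of the pan-endothelial sum only in the place of the combination, which was lowest for red blood cell genes and above vehicle for endothelial genes. Heart muscle genes, which whole lung contains in its pulmonary veins and which adhering atrium can add, summed to 1237, 645, 854 and 594 FPKM over 4 genes. Fibroblast genes summed to 443, 314, 510 and 350 FPKM over 6, and alveolar type 1 genes to 3214, 3295, 3256 and 3463 over 5. No gene of these lists was at 0 reads in any library. The fibroblast and heart muscle sums were low in both amiodarone libraries, as Aplnr, Apln, Kdr and Sox18 were. So were the sums of smooth muscle and pericyte genes (295, 199, 278 and 215 FPKM), B cell genes (117, 39.3, 97.2 and 69.2) and fat cell genes (68.9, 23.8, 116 and 45.1). The part of any of these cells in the endothelial results was not tested.

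**Figure D4:**
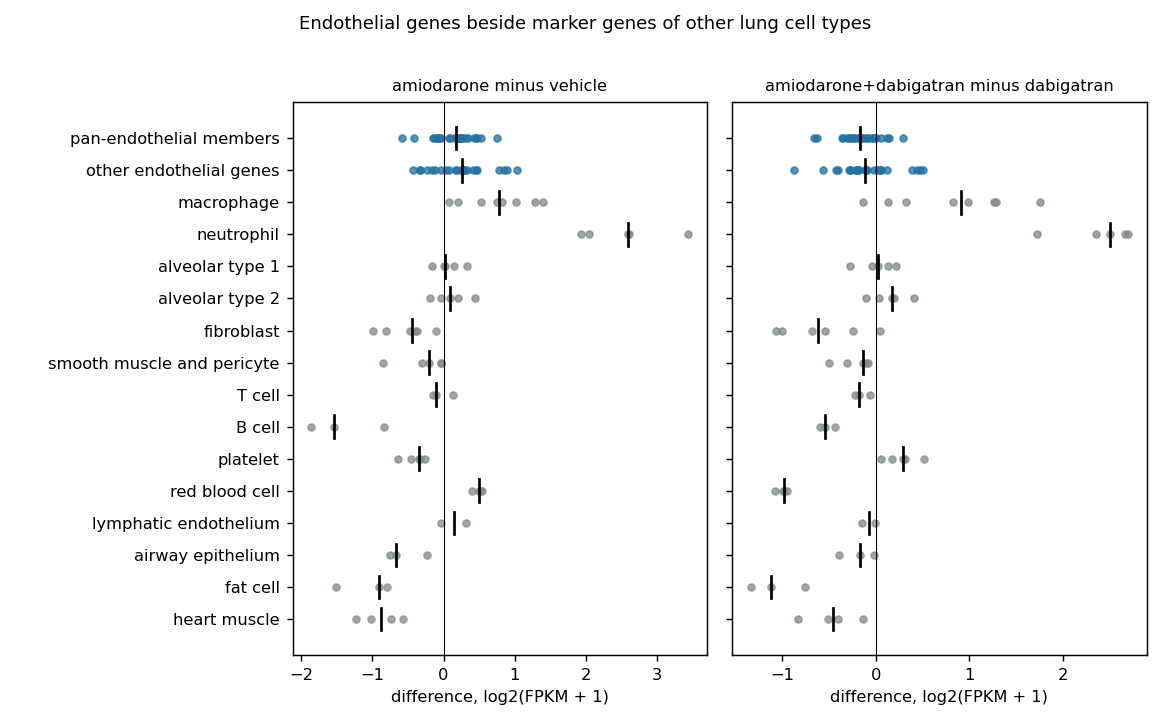
Difference in log2(FPKM + 1) of each gene (points) and the median of its list (black bars) for the 27 pan-endothelial members, 25 other endothelial genes and marker lists of other cell types, for amiodarone minus vehicle (left) and amiodarone + dabigatran minus dabigatran (right). The endothelial medians of 0.18 and 0.27 on the left turn to -0.16 and -0.12 on the right, neutrophil genes lie to the right of 0 in both panels, as macrophage genes do except 1 of 8 in the right panel, and red blood cell genes lie on opposite sides.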

How the data were processed

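Poly(A) RNA of the lung was sequenced on a DNBseq instrument by the authors, who used HISAT 2.0.4 for the genome GRCm38.p6, Bowtie2 2.2.5 for the transcripts and RSEM 1.2.8 to quantify. Per gene and library, the table they deposited holds an estimated count and an expression value. The unit of the latter, scaled by the authors for length and depth, was taken as FPKM, because a gene's reads per unit differed between libraries as the total reads did. In all, 8 columns of other means were not used. Groups follow the sample titles. Ratios of FPKM were given exact Clopper-Pearson 95% intervals from the rounded estimated counts (scipy 1.17.1). Differences used log2(FPKM + 1), with a fold of 1.5 and an average of 1 FPKM or more as the limit. With 1 library per group no test across mice was possible. Calculations used Python 3.11.15, pandas 2.3.3 and numpy 2.4.6, and were tested on simulated data. The 42 genes and all lists were chosen with earlier results of these data known. Values in every library were given for the capillary and adhesion genes, for the most abundant and each called gene of the other groups, for ligands of the described receptors that passed the limit, and for related genes called alike in both comparisons of amiodarone. Coordinates and promoters are from RefSeq. Alternatives were the fold, the pseudocount, the limit on low values, rescaling by the median ratio or to the pan-endothelial median, and reads scaled to the library total.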

Additional observations from a re-analysis of the deposited data

Results flagged for a closer look

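The 14 genes with a higher level in amiodarone than in vehicle and a lower one in amiodarone + dabigatran than in dabigatran, each beyond counting error, are given here by the log2 difference with dabigatran minus that without it. It was -0.79 for Vwf, -0.68 for Calcrl, -0.62 for Prx, -0.59 for Bmpr2 and -0.59 for Car4. It was -0.51 for Tmem100, -0.47 for Cdh5, -0.45 for Tek, -0.45 for Nostrin, -0.41 for Icam2 and -0.40 for Pecam1. It was -0.33 for Tie1, -0.32 for Erg and -0.21 for Cav1. These differences rest on 1 library per group and were not tested.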

How the results depend on the processing

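With a fold of 2 in place of 1.5, 1 member was called higher in amiodarone than in vehicle (Lyve1, 1.79% of all genes), 0 were called lower in the combination than in amiodarone (0.258%), and 1 was called lower in the combination than in dabigatran (Aplnr, 0.402%). With a smaller limit of 0.32 on the log2 scale, 12 were called higher and 4 lower in amiodarone than in vehicle (9.13% and 14.1% of all genes), 4 higher in dabigatran than in vehicle (2.81%), 9 lower in the combination than in amiodarone (3.91%), and 1 higher and 9 lower in the combination than in dabigatran (7.77% and 8.50%). A pseudocount of 0.1 FPKM, no limit on low values, a mean of at least 5 FPKM, rescaling by the median ratio and estimated reads scaled to the library total each left all 12 counts and medians within 1.5 times or within their error. Without the limit on low values Sele was also called higher in amiodarone than in vehicle. Of 168 single differences, 0 changed sign in scaled reads and 2 did after rescaling by the median ratio. In scaled reads 6 of them left their counting interval, and after rescaling by the median ratio 25 did. Set against the pan-endothelial median, 5 of the 40 differences of the capillary and adhesion genes changed sign and 32 left their counting interval. The counts beyond counting error and the pattern of opposite directions were not recomputed under the alternatives. No paired analysis was possible because each group has 1 library. For Sele and Ackr1 the reads limit what can be seen, and for the rest it is the single library per group.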

Other observations

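Other endothelial genes outside the 42 also differed, and those named here were chosen after their values were seen. Of the 25 further endothelial genes 4 were called higher in amiodarone than in vehicle, where 4.13% of all genes were. Cd93, a lectin-like receptor of endothelium, had 76.6 FPKM in vehicle, 158 in amiodarone, 83.7 in dabigatran and 117 in amiodarone + dabigatran, and S1pr1, the barrier-protecting receptor of sphingosine 1-phosphate, had 90.0, 163, 107 and 140. The factors Klf4 (55.0, 103, 68.5 and 71.1 FPKM) and Gata2 (42.9, 74.2, 45.8 and 65.5 FPKM) were the others. Amiodarone alone was the highest library for all 4. In the comparison of the combination with dabigatran, 1.91% of all genes were called lower. Bcl6b, an endothelial repressor, was the 1 of the 25 called, at a ratio of 0.519 (0.465 to 0.578). Of 7 Notch pathway genes, the arterial and tip cell ligand Dll4, at 0.574 (0.536 to 0.615), and the target Hes1, at 0.625 (0.581 to 0.673), were called lower there. Both were also below vehicle with amiodarone, at 0.793 (0.740 to 0.849) and 0.679 (0.633 to 0.727), without being called.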
